A study of Rattus norvegicus with 6 samples.

Results

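Nitric oxide (NO) synthesis and the removal of asymmetric dimethylarginine (ADMA) were described in primary rat brain microvascular endothelial cells (rBMECs) by 9 genes: Nos3, Nos2, Nosip, Gch1, Spr, Ass1, Asl, Ddah1 and Ddah2. The genes were taken by symbol from the deposited table of 33566 genes, and each symbol matched 1 row. RNA was sequenced from 6 libraries, 3 from cells treated with homocysteine (Hcy) and 3 from cells given sterile water as vehicle (Veh), to ask which genes respond to Hcy in the cells that form the blood–brain barrier. The cells came from cerebral tissue, named in the paper as forebrain, of SD rats aged 18 to 22 days. They were purified in culture and used after a single passage, and neither group is labelled with a genetic change. The labels give 100 μM Hcy for 24 h, and also name a prepared Hcy solution of 50 μM. They do not say whether the libraries of a group came from separate cell isolations, so p-values measure the spread between these libraries.

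In endothelium, NO is made from L-arginine by endothelial NO synthase, the product of Nos3, which needs the cofactor tetrahydrobiopterin. ADMA, released when methylated proteins are broken down, competes with arginine at the enzyme and is cleared by the dimethylarginine dimethylaminohydrolases, the products of Ddah1 and Ddah2. NO relaxes vessels and restrains leukocyte adhesion, and raised Hcy is known to accompany lower NO availability in vessels.

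Libraries held 14024997 to 16764584 counts, at which 3 counts, taken as the floor, correspond to 0.179 to 0.214 CPM (counts scaled to a common library total). This floor covers counting error only. Of the 14 endothelial marker genes listed, Pecam1 and Abcb1a were not analysed here and 11 were above 1 CPM on average. Among the 11, the endothelial cadherin Cdh5 was at 1535 to 2039 CPM and the VEGF receptor Kdr at 310 to 530 CPM. Slc2a1 was at 470 to 637 CPM, but Slco1a4 and Mfsd2a were only at 3.28 to 5.22 and 2.96 to 4.57 CPM. Cldn5 had 0 counts in each library. The paper shows the protein of that gene in rBMECs by Western blot. Whether reads of Cldn5 went uncounted was not tested. The summed endothelial level was 9490 to 9935 CPM in Hcy and 8113 to 9619 CPM in Veh. Its largest part was Vwf, at 2858 to 3003 CPM in Hcy and 1976 to 2533 CPM in Veh, and of the 11 markers 6 were on the higher side in Hcy and 5 on the lower (Tek, Eng, Slco1a4, Mfsd2a and Slc2a1), with edgeR adjusted p from 0.0536 upward. Of the markers of other cells, the leukocyte gene Ptprc, the neuronal genes Rbfox3 and Snap25 and the astrocyte gene Aqp4 had 0 counts throughout. Whether reads of these genes went uncounted was not tested either. Other markers were detected. The fibroblast gene Col1a1 was at 54.4, 34.2 and 55.6 CPM in Hcy and at 69.1, 55.8 and 82.0 CPM in Veh, narrowly without overlap, with a log2 difference of -0.52 that did not pass (edgeR adjusted p = 0.264). The summed level of the fibroblast markers was 35.7 to 57.8 CPM in Hcy and 57.5 to 83.9 CPM in Veh. The oligodendrocyte gene Mog was at 9.47 to 10.4 CPM, and the neuronal genes Tubb3 and Syt1 were at 4.14 to 7.33 and 1.08 to 2.63 CPM over the 6 libraries. The summed level of 8 pericyte and smooth muscle markers was 96.1 to 109 CPM in Hcy and 127 to 172 CPM in Veh. Nearly all of it was the smooth muscle actin gene Acta2, which was at 90.7 to 103 CPM in Hcy and 123 to 166 CPM in Veh and fell by 0.64 on the log2 scale (edgeR adjusted p = 0.0248). The other 7 were at most 3.63 CPM and did not pass, and 5 of them (Pdgfrb, Rgs5, Cspg4, Abcc9 and Des) were on the higher side in Hcy, so the lower sum is that of Acta2. In bulk RNA, fewer cells of a type and less RNA per cell cannot be told apart. Veh replicate 3 stood apart: a chi-square per gene that compares counts of 2 libraries was 26.2 and 29.5 for its pairs with the other Veh libraries and 5.77 to 7.76 for the other pairs within a group. Values with this or another library left out are therefore given beside many results of the NO pathway.

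The promoters of the most abundant synthase gene and of the most abundant ADMA-removing gene are shown because Klf2 and Klf4, zinc-finger factors that bind the letters CACCC and are known to promote Nos3 transcription, differed between the groups as described further on. The RefSeq table used here (build GRCr8) matched 6 of the 9 genes. The 250 bases before the start site are printed 5′ to 3′ on the gene's strand, with CACCC, or GGGTG on the other strand, in capitals. The Nos3 window lies at chr4:11706582-11706831 on the minus strand and the Ddah1 window at chr2:237327562-237327811 on the plus strand.
Nos3: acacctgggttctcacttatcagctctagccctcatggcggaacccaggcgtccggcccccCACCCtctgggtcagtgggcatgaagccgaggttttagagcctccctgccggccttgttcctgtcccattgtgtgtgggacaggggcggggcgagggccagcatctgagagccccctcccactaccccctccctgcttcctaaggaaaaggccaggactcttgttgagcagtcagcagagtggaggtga
Ddah1: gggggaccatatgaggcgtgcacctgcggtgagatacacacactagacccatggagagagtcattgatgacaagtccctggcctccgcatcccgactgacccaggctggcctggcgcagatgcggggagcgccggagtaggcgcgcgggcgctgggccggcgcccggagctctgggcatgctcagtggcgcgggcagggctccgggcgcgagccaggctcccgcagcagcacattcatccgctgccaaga
The Nos3 window held 1 match, which begins 189 bases before the start site, and the Ddah1 window held 0. Spr and Ass1 held 2 matches each, and Gch1 and Asl held 0. Over all 33469 windows of this length, 49.2% held at least 1 match. A match is a run of letters and was not tested as a binding site.

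The pathway was dominated by 2 transcripts. Per kilobase of gene length, Ddah1 was at 217 CPM per kb on average over the 6 libraries, above 97.2% of the genes tested, and Nos3 was at 138 CPM per kb, above 95.6%. Asl followed at 25.5, Nosip at 22.3, Spr at 10.8 and Gch1 at 5.34 CPM per kb. Ddah2 and Ass1 were lower, at 2.41 and 0.964 CPM per kb, and Nos2 was lowest at 0.0429 CPM per kb. The libraries of Asl and Nosip overlapped, so the order within that pair did not exceed the spread between libraries, while every other gene was apart from its neighbours in this order in all libraries. Within the pairs of related genes, Nos3 made up 99.92% to 99.99% of the summed Nos3 and Nos2 level per length. Ddah1 made up 98.7% to 99.1% of that of Ddah1 and Ddah2. Ddah2 overlaps another listed gene on the same strand, as given below, so its level may be undercounted.

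**Figure D1:**
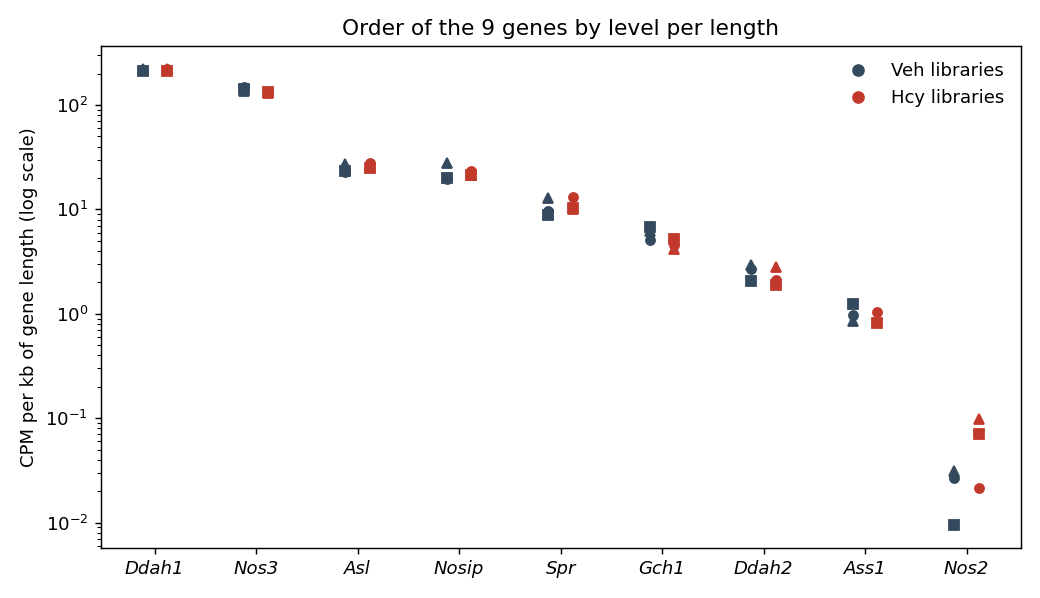
Level of each of the 9 genes per kilobase of gene length in the 3 Veh and 3 Hcy libraries, on a log scale, ordered by the mean over all libraries (circles, squares and triangles are replicates 1, 2 and 3). Ddah1 and Nos3, at 217 and 138 CPM per kb, lie well above the other 7 genes, and Nos2 lies at the bottom at 0.0429 CPM per kb.

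With edgeR's quasi-likelihood test, 0 of the 9 genes passed both thresholds, an adjusted p up to 0.05 and a log2 fold change of 1 or more in either direction (written below as log2 difference, Hcy relative to Veh, with its standard error, SE), where 0.486% of the 14603 genes tested did. Without the fold-change threshold the count was also 0, against 2.34% of all genes tested (1.32% higher and 1.01% lower in Hcy). DESeq2 called 0 of the 8 to which it gave an adjusted p (all but Nos2), and 612 of the 14603 genes. At an unadjusted p of at most 0.05 the count was 0 in edgeR, against 13.4% of all genes (7.44% higher and 5.95% lower). In DESeq2 it was also 0, against 1636 of the 14603 genes. Groups did not overlap for 1 gene, Nos3, lower in Hcy, where 20.1% of all genes did not overlap (9.27% lower and 10.8% higher). Of the 9 log2 differences 4 were above 0 and 5 below, their median was -0.04, and that of all genes tested was -0.02. The 9 genes all passed the filter on low counts, Nos2 with 27 counts in total.

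**Figure D2:**
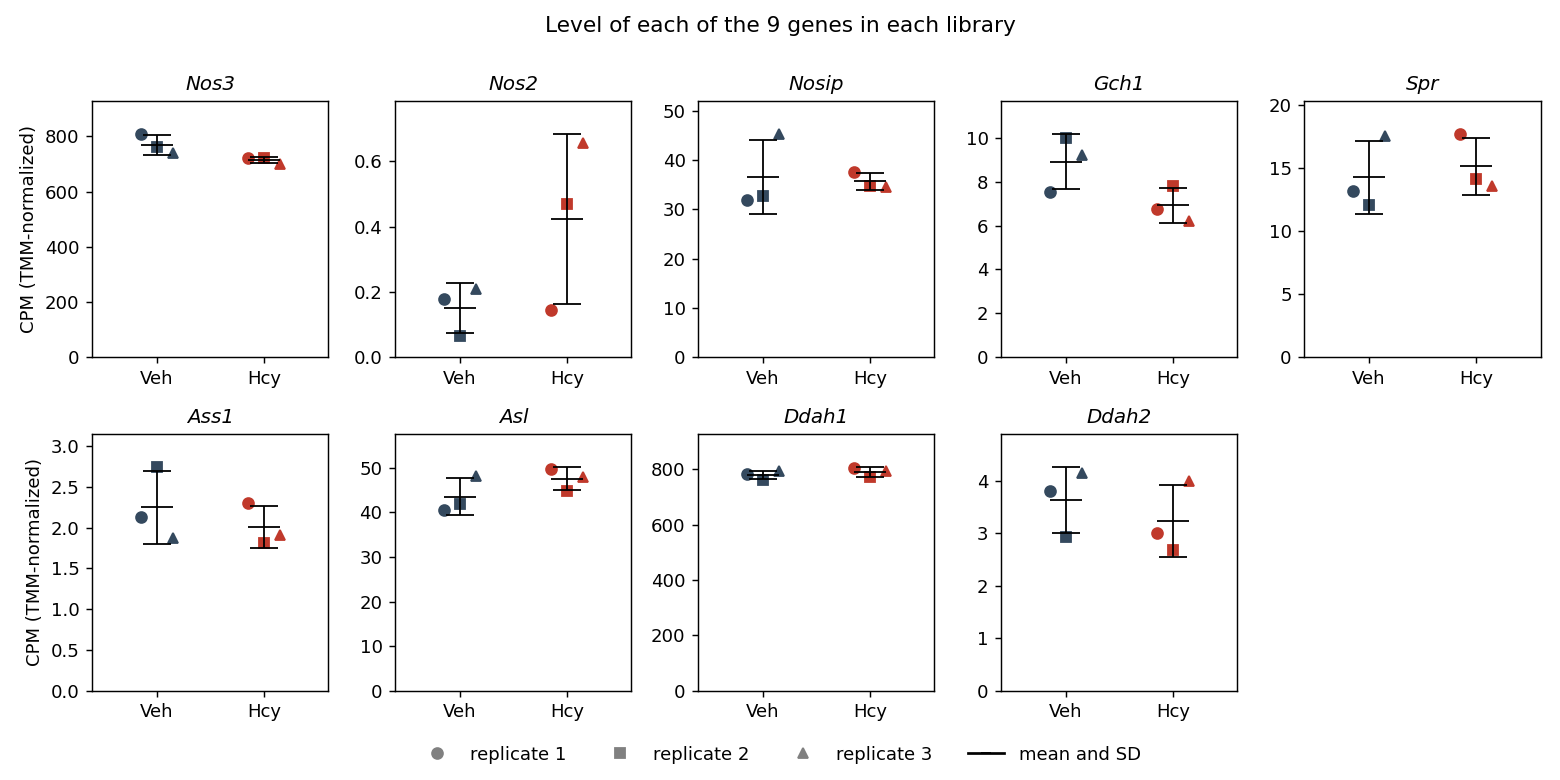
TMM-normalized CPM of each gene in each library, with the mean and SD of the 3 libraries of a group; each panel has its own axis from 0. The Hcy libraries lie below the Veh libraries for Nos3, and the groups overlap for the other 8 genes.

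Among the synthases, Nos3, listed on the minus strand of chromosome 4 from 7320668 to 7342410 (positions here are those of the deposited table, which names no build), was at 722, 721 and 701 CPM in Hcy replicates 1 to 3 and at 809, 761 and 740 CPM in the Veh replicates. The 3 Hcy libraries lay below the 3 Veh libraries, by a small margin. The means were 715 ± 12.2 CPM in Hcy libraries and 770.0 ± 35.3 CPM in Veh libraries (SD, n = 3 each), a log2 difference of -0.11 (SE 0.06, 95% interval -0.25 to 0.04, edgeR adjusted p = 0.532). The interval spans 84.1% to 103% of the Veh level. Without Veh replicate 3 the log2 difference was -0.13, and its adjusted p from edgeR was 0.146, and without Veh replicate 1 they were -0.07 and 0.767. With 10060 to 13626 counts per library, counting error was under 1% of the Nos3 level, and the spread between libraries was 1.71% in Hcy and 4.59% in Veh. Atg9b, on the opposite strand, overlaps the listed Nos3 interval by 362 bases and had 7 to 21 counts per library.

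Nos2, on chromosome 10 from 66189786 to 66313190 (plus strand), encodes the inducible synthase, known from activated macrophages. It was counted 2, 7 and 11 times in the Hcy replicates, in order, and 3, 1 and 3 times in the Veh replicates. The Veh libraries were all at or under the floor of 3 counts, as was Hcy replicate 1. Summed over libraries, 20 counts against 7 gave a ratio of 2.95 after scaling by the TMM-normalized library totals. Its exact 95% interval of 1.2 to 8.25 covers counting error only. The test over libraries gave a log2 difference of 1.48 (SE 0.75) and did not pass (edgeR adjusted p = 0.460). With a library left out the difference ran from 1.015 (without Hcy replicate 3) to 1.87 (without Hcy replicate 1), and was 1.75 without Veh replicate 3. LOC100359515, which shares its protein match with Nos2 and between which reads could have been split, had 3, 6 and 11 counts in Hcy and 4, 7 and 5 in Veh. The 6 microglia and macrophage markers summed to 1.68 to 2.66 CPM in Hcy and 1.45 to 1.72 CPM in Veh, with Ptprc and Cx3cr1 at 0, and their part in the Nos2 counts was not tested. Nos1, the neuronal synthase gene, had 0 counts in all 6 libraries. Nosip, on chromosome 1 from 101055622 to 101072938 (plus strand), encodes a protein that binds endothelial NO synthase and moves it away from the membrane. It was at 37.6, 34.7 and 34.6 CPM in Hcy and at 31.9, 32.6 and 45.3 CPM in Veh. Its highest library was Veh replicate 3, and its log2 difference of -0.04 (SE 0.14, edgeR adjusted p = 0.950) became 0.14 without that library (adjusted p = 0.339) and -0.13 without Veh replicate 1.

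For the cofactor, Gch1, on chromosome 15 from 23934585 to 23969011 (minus strand), encodes GTP cyclohydrolase 1, the rate-limiting enzyme of tetrahydrobiopterin synthesis. Gch1 was at 6.75, 7.79 and 6.21 CPM in Hcy and at 7.54, 10.0 and 9.21 CPM in Veh. The groups overlapped only because Veh replicate 1 lay below Hcy replicate 2. The mean in Hcy was 77.6% of that in Veh, a log2 difference of -0.37 (SE 0.16, 95% interval -0.74 to 0.01, edgeR adjusted p = 0.383). Leaving out single libraries moved it to between -0.47 and -0.28. Spr, on chromosome 4 from 116912351 to 116916236 (minus strand), encodes sepiapterin reductase, which carries out the last step of the same synthesis. Spr was at 17.7, 14.1 and 13.5 CPM in Hcy and at 13.2, 12.04 and 17.5 CPM in Veh, with a log2 difference of 0.08 (SE 0.17, edgeR adjusted p = 0.896). Hcy replicate 1 and Veh replicate 3 were its high libraries, and without Veh replicate 3 the value was 0.26 (adjusted p = 0.350), while without Hcy replicate 1 it was -0.04. Per length, Gch1 was below Spr in every library, and the log2 ratio of Gch1 to Spr was -1.25 ± 0.266 in Hcy libraries and -0.79 ± 0.351 in Veh libraries (SD, n = 3 each), with overlap.

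For arginine, Ass1 and Asl encode argininosuccinate synthase and lyase, which rebuild arginine from the citrulline that NO synthesis releases. Ass1, on chromosome 3 from 10327414 to 10375826 (minus strand), was at 2.30, 1.81 and 1.91 CPM in Hcy and at 2.14, 2.74 and 1.87 CPM in Veh, a log2 difference of -0.17 (SE 0.26, 95% interval -0.74 to 0.41, edgeR adjusted p = 0.853), and it ran from -0.28 without Veh replicate 3 to -0.0033 without Veh replicate 2. Its groups overlapped, and the interval holds differences of either sign. With 27 to 43 counts per library, counting error was 18.2% of the Ass1 level in Hcy and 16.8% in Veh. Asl, on chromosome 12 from 30165694 to 30178341 (plus strand), was at 49.8, 44.9 and 48.0 CPM in Hcy and at 40.5, 41.8 and 48.2 CPM in Veh. Only Veh replicate 3 reached the Hcy libraries. The log2 difference of Asl was 0.13 (SE 0.09, edgeR adjusted p = 0.617), and without Veh replicate 3 it was 0.21 (adjusted p = 0.132), and without Veh replicate 1 it was 0.08 (adjusted p = 0.821). The listed Asl interval lies within Crcp on the opposite strand, which had 323 to 461 counts per library, and reads from shared bases cannot be told apart without strand. Per length, Asl was 26.6 times Ass1 over the 6 libraries (geometric mean).

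Ddah1 gave the narrowest interval of the 9 and Ddah2 a broad one. Ddah1, listed on the plus strand of chromosome 2 from 251634431 to 251766014, was at 803, 770.0 and 794 CPM in Hcy and at 783, 762 and 793 CPM in Veh. The libraries of both groups were interleaved, with a spread of 2.17% of the mean in Hcy and 2.00% in Veh. Its log2 difference was 0.02 (SE 0.06, 95% interval -0.12 to 0.15, edgeR adjusted p = 0.941), so that Hcy levels below 92.3% or above 111% of Veh lay outside the interval. Without Veh replicate 3 it was 0.03 (adjusted p = 0.775), and without Veh replicate 2 it was -0.00014. Ddah2, on chromosome 20 from 5049496 to 5052585 (plus strand), was at 3.02, 2.69 and 4.00 CPM in Hcy and at 3.80, 2.93 and 4.15 CPM in Veh. Its log2 difference was -0.16 (SE 0.24, 95% interval -0.70 to 0.37, edgeR adjusted p = 0.845), and it ran from -0.35 without Hcy replicate 3 to -0.04 without Hcy replicate 2, with -0.05 without Veh replicate 3. Ddah1 exceeded Ddah2 by a geometric mean of 91.2-fold per length. AC094348.3, on the same strand, overlaps the listed Ddah2 interval by 1592 bases and had at most 1 count in any library. Reads from the shared bases could have gone uncounted for Ddah2, which would raise this fold, and this was not tested. The log2 ratio of Ddah1 to Ddah2 was 6.61 ± 0.281 in Hcy libraries and 6.42 ± 0.232 in Veh libraries (SD, n = 3 each).

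**Figure D3:**
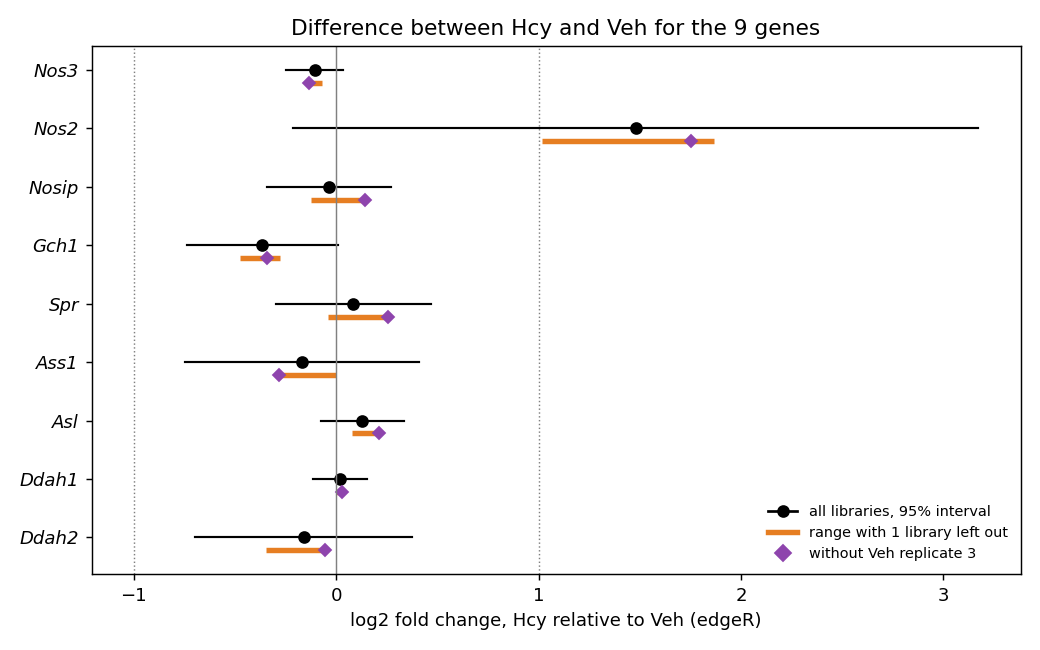
Log2 difference of each gene, Hcy relative to Veh, with its 95% interval from edgeR (black), the range over fits that leave out 1 library each (orange) and the value without Veh replicate 3 (diamond); dotted lines mark the fold-change threshold of 1 in either direction. Ddah1 and Nos3 have narrow intervals around 0.02 and -0.11, and Nos2, with 27 counts in total, has the broadest.

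The other genes of the pathway were listed by role, 60 symbols in all, of which 55 had a row. The other 5 symbols had no match here, and 2 of them, Gucy1a3 and Gucy1b3, are former symbols of Gucy1a1 and Gucy1b1, which are listed too. Calm2 had 2 rows, and 47 rows passed the filter on low counts. Among them, 3 fell and 1 rose at an adjusted p of at most 0.05, against 2.34% of all genes in either direction, and 1 passed the fold-change threshold as well, against 0.486%. Their median log2 difference was 0.03, and that of all genes was -0.02. The lists were chosen with earlier results of these data known, so these counts are a description and an excess was not tested.

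The 3 that fell were among the 13 tested rows of partners and regulators of the synthases. Klf4 was at 16.5, 19.5 and 21.6 CPM in Hcy and at 38.5, 37.0 and 36.3 CPM in Veh. It fell by 0.95 on the log2 scale (SE 0.11, edgeR adjusted p = 0.00415), and it stayed past the threshold in all 13 alternatives. Klf2 was at 38.1, 35.9 and 37.1 CPM in Hcy and at 56.5, 49.4 and 53.7 CPM in Veh. It fell by 0.52 on the log2 scale (SE 0.08, edgeR adjusted p = 0.0129), and its adjusted p rose to as much as 0.0825 in 4 refits, those without Hcy replicate 1, 2 or 3 and without Veh replicate 1. For both factors, each Hcy library was below each Veh library by more than the spread within either group. Over the same libraries Nos3 differed by -0.11, as given above, and the Klf2 and Klf4 differences were not tested against it. Acta2, and with it the summed level of pericyte and smooth muscle markers, was lower in the same Hcy libraries, as was Col1a1 without passing the test. The other pericyte and smooth muscle markers did not pass. The part of Acta2 and Col1a1 in the Klf2 and Klf4 levels was not tested.

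Hsp90aa1 encodes an HSP90 chaperone, a family that binds endothelial NO synthase. It was at 9.84, 15.1 and 8.89 CPM in Hcy and at 38.6, 19.3 and 67.1 CPM in Veh, a wide spread within Veh. It fell by 1.88 on the log2 scale (SE 0.40, edgeR adjusted p = 0.0493). It lost significance in 4 of the 6 refits with 1 library left out, with an adjusted p of up to 0.229. Under a replicate block it fell by 1.76 and did not pass (edgeR adjusted p = 0.0807). Without Veh replicate 3, its highest library, it fell by 1.36 (adjusted p = 0.0178), and without Veh replicate 2 by 2.23 (adjusted p = 0.0124). LOC103692716, which shares its protein match and between which reads could have been split, had 59, 135 and 106 counts in Hcy and 321, 175 and 242 in Veh. Hsp90ab1, the other cytosolic HSP90 gene, named after its values were seen, was far more abundant, at 2368, 2228 and 2241 CPM in Hcy and 1995, 1927 and 2185 CPM in Veh. Its Hcy libraries all lay above its Veh libraries, with a log2 difference of 0.16 that did not pass (SE 0.07, edgeR adjusted p = 0.338), and the 2 genes were not tested against each other. Cav1, named after its values were seen, encodes caveolin-1, which holds the synthase inactive at the membrane. It was at 3471 ± 58.2 CPM in Hcy libraries and 3462 ± 71.1 CPM in Veh libraries (SD, n = 3 each), a log2 difference of 0.00 (95% interval -0.12 to 0.13, edgeR adjusted p = 0.988) whose sign turned in 3 of the 6 refits with 1 library left out and was 0.02 without Veh replicate 3.

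**Figure D4:**
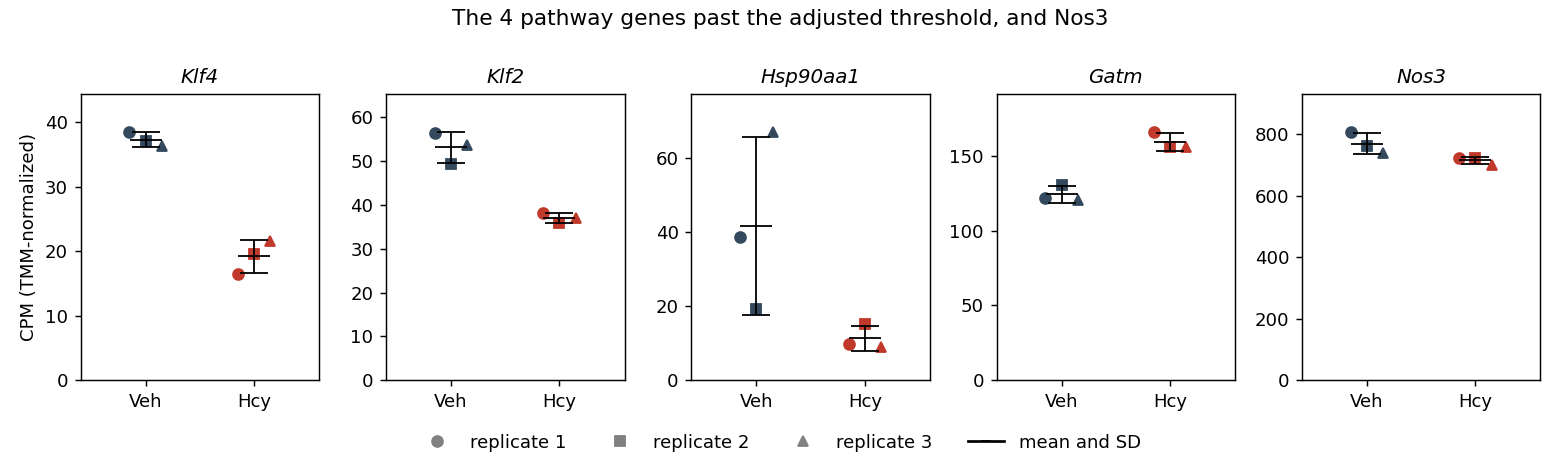
TMM-normalized CPM of Klf4, Klf2, Hsp90aa1 and Gatm, the 4 pathway genes past an adjusted p of 0.05, and of Nos3 in each library, with the mean and SD of each group of 3. Klf4 and Klf2 separate the groups clearly, Hsp90aa1 spreads from 19.3 to 67.1 CPM within Veh, and Nos3 differs little.

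Of 5 tested genes of tetrahydrobiopterin synthesis and recycling, 0 passed the adjusted threshold in edgeR or DESeq2, and 1, Gchfr, had an unadjusted p of at most 0.05 in edgeR, where 13.4% of all genes did. Gchfr encodes the feedback regulator of GTP cyclohydrolase 1 and was at 15.0 ± 2.29 CPM in Hcy libraries and 20.7 ± 3.81 CPM in Veh libraries (SD, n = 3 each), a log2 difference of -0.47 (edgeR adjusted p = 0.233). The log2 difference of Gchfr was -0.31 without Veh replicate 3 and -0.35 without Hcy replicate 3, and in both fits its unadjusted p from edgeR was above 0.05 (0.0534 and 0.0809). Pts, which encodes the enzyme between Gch1 and Spr, had a log2 difference of 0.25 (edgeR adjusted p = 0.623), and between 0.14 (without Hcy replicate 1) and 0.39 (without Hcy replicate 3) with a library left out. Qdpr, whose product recycles the cofactor after use, was at 84.2 ± 5.85 CPM in Hcy libraries and 79.3 ± 7.01 CPM in Veh libraries (SD, n = 3 each), a log2 difference of 0.09 (edgeR adjusted p = 0.764), and between 0.03 (without Hcy replicate 1) and 0.16 (without Veh replicate 3) with a library left out.

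Of 13 tested genes of arginine supply and use, Gatm rose and the others did not pass. Gatm encodes the amidinotransferase that uses arginine in creatine synthesis. It was at 166, 156 and 156 CPM in Hcy and at 122, 131 and 120.3 CPM in Veh, and it rose by a log2 difference of 0.36 (SE 0.07, edgeR adjusted p = 0.0364). It lost significance in the 5 fits that left out a library other than Veh replicate 3, with an adjusted p of up to 0.180. Under a replicate block the log2 difference of Gatm was also 0.36, and it did not pass (edgeR adjusted p = 0.0725). Odc1, the ornithine decarboxylase of polyamine synthesis, had a log2 difference of 0.20 (adjusted p = 0.230), which without Veh replicate 3 was 0.24 and passed (adjusted p = 0.0336), while its unadjusted p from edgeR was above 0.05 without Hcy replicate 1 (0.0776) or Veh replicate 1 (0.0710). Sms, the spermine synthase gene, had one of -0.20 (adjusted p = 0.468), and between -0.29 (without Hcy replicate 1) and -0.10 (without Veh replicate 3) with a library left out, and its unadjusted p was at most 0.05 without Hcy replicate 1 (0.0372) or Veh replicate 2 (0.0377).

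Of 7 tested genes of methylarginine formation, 0 passed the adjusted threshold in edgeR or DESeq2, and 1 had an unadjusted p of at most 0.05 in edgeR, a share near the 13.4% of all genes. That gene was Prmt7, an arginine methyltransferase gene, at 41.1 ± 2.65 CPM in Hcy libraries and 48.2 ± 1.22 CPM in Veh libraries (SD, n = 3 each), a log2 difference of -0.23 (edgeR adjusted p = 0.217), and its unadjusted p was 0.0801 without Hcy replicate 3. Prmt5 and Prmt3, of the same family, had log2 differences of -0.16 and 0.10, the latter between 0.04 (without Hcy replicate 2) and 0.17 (without Veh replicate 3) with a library left out. Prmt5 and Prmt3 had an unadjusted p of at most 0.05 in 1 such fit each, without Hcy replicate 1 (0.0330) and without Veh replicate 3 (0.0419). Of 9 tested genes of NO targets and cGMP signalling, 0 passed in edgeR or DESeq2, and 0 had an unadjusted p of at most 0.05 in edgeR with all libraries. Pde3b had one without Veh replicate 1 (0.0135), without Hcy replicate 3 (0.0477), with the replicate block (0.0298) and with no count filter (0.0437), and Gucy1b1 without Hcy replicate 3 (0.0223). The cGMP phosphodiesterase gene Pde2a was at 442 ± 8.98 CPM in Hcy libraries and 406 ± 17.0 CPM in Veh libraries (SD, n = 3 each), with a log2 difference of 0.12 (edgeR adjusted p = 0.468), and Pde3b had one of 0.72 (adjusted p = 0.392), and between 0.47 (without Veh replicate 3) and 1.06 (without Veh replicate 1) with a library left out. Transcripts of the listed subunits of soluble guanylate cyclase, the NO receptor, were close to undetected, and these data do not measure its protein. The subunit gene Gucy1b1 had 5, 5 and 0 counts in Hcy and 1, 1 and 0 in Veh. Gucy1a1 and Gucy1a2, named after their values were seen, had at most 2 counts in any library.

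**Figure D5:**
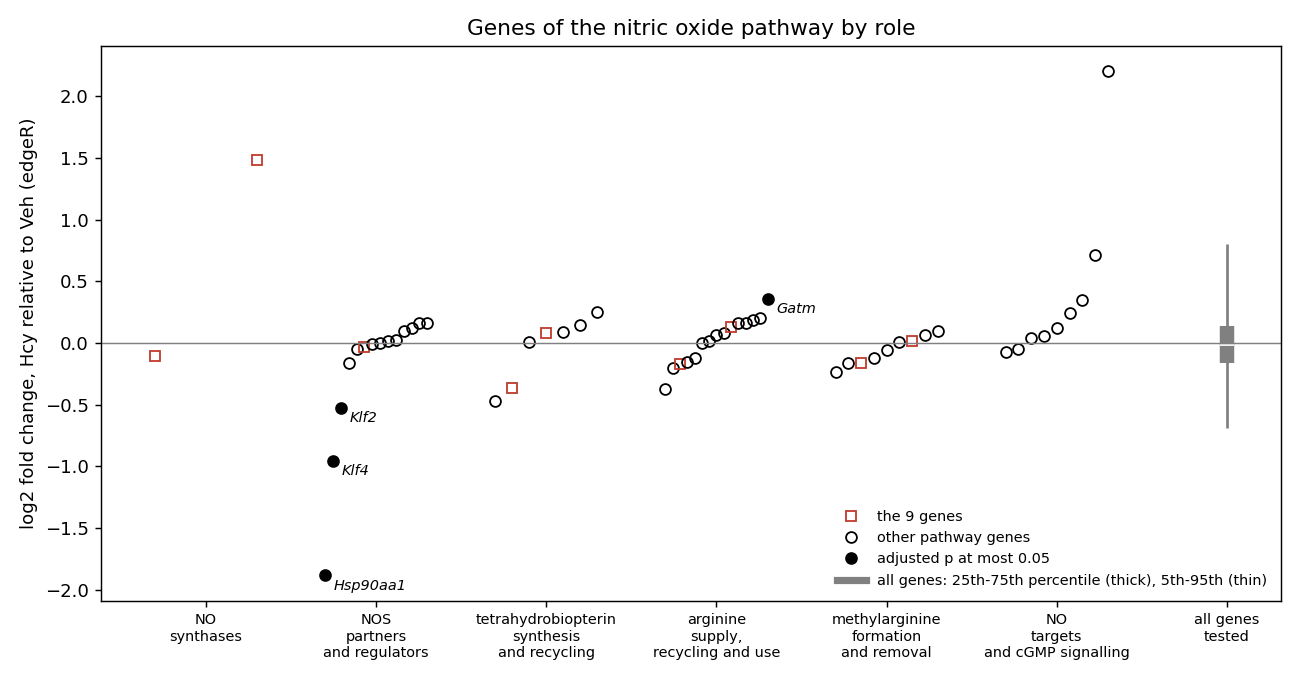
Log2 difference, Hcy relative to Veh, of the tested genes of each role, with the 9 genes as red squares, the other pathway genes as circles, and filled symbols for an adjusted p of at most 0.05; the grey bar gives all genes tested, 25th to 75th percentile from -0.16 to 0.14. Klf4, Klf2 and Hsp90aa1 lie below that bar and Gatm above it, while many of the others lie within it; the 5th to 95th percentile is drawn thin and the white mark is the median. The highest point, Gucy1b1, rests on 12 counts.

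The 5 genes whose log2 CPM followed that of Nos3 most closely over the 6 libraries were Plagl1, Sfxn3, Jrkl, Cldn1 and Ppard, with Pearson correlations of 0.991 to 0.978. With 6 libraries, 155 of the 11787 genes compared had a correlation above 0.9, and the libraries share their normalization, so this is a description only. None of the 5 passed the adjusted threshold in edgeR, and their log2 differences ran from -0.63 to -0.10.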

How the data were processed

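RNA was sequenced from 3 Hcy and 3 Veh libraries of rBMECs, grouped by their titles. The deposited table holds whole-number read counts for 33566 genes, which the authors left unnormalized, from poly(A) libraries. The submitters' processing notes name fastp, HISAT2 2.2.1, StringTie 2.2.3, Cufflinks, featureCounts 2.0.6 and DESeq2 1.42.0 and the build mRatBN7.2. The table names no build, and its positions reach 282724300 on chromosome 1, past the end of that chromosome in mRatBN7.2. The use of strand in counting is not given in the sources used here. A further deposited table of the authors' own comparison (normalized copies of the counts, fold changes and p-values) was not used.

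The software was edgeR 4.0.16 with limma 3.58.1, in R 4.3.3. Genes with at least 10 counts over the 6 libraries were kept, which left 14603. TMM factors scaled the libraries, and Hcy was set against Veh by the quasi-likelihood test of edgeR with no other covariate, a prior count of 0.125 and Benjamini-Hochberg adjustment over all genes tested. The standard error is the log2 fold change divided by the root of the test's F, and 95% intervals use its t quantile. Levels between genes are CPM per kilobase of the deposited gene length. The genes and the pathway and marker lists were chosen with earlier results of these data known. Of the 10 genes chosen, 1 is not reported here, nor is 1 of the other pathway genes, and neither enters a count of the lists. The other 9 are named, and of each list the genes past an adjusted p of 0.05, or up to 3 with the smallest p. Results were recomputed with DESeq2 1.42.0, with its size factors in edgeR, with library totals and with other count filters, a prior count of 2, a replicate block, other call thresholds and each library left out. On simulated data for this comparison with 14391 genes tested, edgeR was scored at an adjusted p of at most 0.05 alone. It recovered 74 of 100 genes changed by a log2 fold of 1 and 93 of 100 changed by 2, with 17 wrong calls. The changed genes were drawn from those with more counts than Nos2. Each gene had the same spread in all simulated libraries, so a library standing apart, as Veh replicate 3 did, was not simulated.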

Additional observations from a re-analysis of the deposited data

How the results depend on the processing

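The count of 0 of the 9 genes past the adjusted threshold held in each alternative run, over 8 genes with edgeR's own expression filter, which removes Nos2, and with DESeq2, which gives Nos2 no adjusted p. At an unadjusted p of at most 0.05 the count was 0, and 1 with the replicate block (Gch1) and 0 to 2 with each library left out. Gch1 passed without Hcy replicate 2 or Veh replicate 1, Nos2 without Hcy replicate 1, and Nos3 and Asl without Veh replicate 3. Over all genes, 1916 of 14603 passed with the block and 3018 of 14352 without Veh replicate 3. The all-gene counts were 1514 of 14375 without Hcy replicate 1 and 1542 of 14325 without Hcy replicate 2. Without Veh replicate 1 the all-gene count was 1689 of 14351. Of 116 single values of the 9 genes under alternatives, 112 kept their direction and side of the threshold and 4 changed sign. Those 4 arose with a library left out, where Nosip ranged from -0.13 to 0.14, Spr from -0.0418 to 0.26 and Ddah1 from -0.00014 to 0.0348, and Cav1, with 3 further changes of sign, from -0.0102 to 0.0206. The cause was not tested.

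Of the other pathway genes, 4 passed the adjusted p, with 2 under the replicate block and 1 to 6 with each library left out. Both thresholds gave 1, with 0 under the replicate block and 0 to 1 with a library left out, and the unadjusted p gave 8, with 7 to 14. Hsp90aa1 and Gatm lost significance under the block (adjusted p of 0.0807 and 0.0725 from edgeR). Over all genes, 14603 in the main fit and 14297 to 14375 with a library left out, 341 passed the adjusted p in the main fit. The count was 612 with DESeq2, and 80 to 957 with a library left out. Both thresholds gave 71, 109 with no count filter, and 39 to 112 with a library left out. The unadjusted p gave 1955, and 1433 to 3018 with a library left out. The highest counts over all genes came without Veh replicate 3. Same-numbered libraries of the groups had correlations of 0.00, 0.17 and 0.06 between their deviations from group means. Hcy replicates 2 and 3 correlated best with their same-numbered Veh library, and Hcy replicate 1 with Veh replicate 3 (0.14). These correlations are small, so the numbers were not read as pairs, and the replicate block was run as an alternative. Depth limits Nos2, Ass1 and Ddah2, whose libraries held at most 67 counts.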
